A study of Rattus norvegicus with 15 samples.

Results

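The enzymes that write and erase methylation of histone H3 at lysine 27 were followed in dorsal CA1 of the rat hippocampus. The set of 6 genes was chosen by name from the 22314 genes of the count table: Ezh1, Ezh2, Eed and Suz12, which encode subunits of Polycomb repressive complex 2 (PRC2), and Kdm6a and Kdm6b, which encode H3K27 demethylases. All 6 were among the 14880 genes with enough counts to be tested.

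PRC2 methylates H3K27, and the trimethylated form marks genes held silent, many of them developmental regulators. EZH1 and EZH2 are alternative catalytic subunits: EZH2 is typical of dividing cells, and EZH1 persists in cells that have left the cell cycle, such as neurons. KDM6A and KDM6B remove the di- and trimethyl marks, and in neurons both writers and erasers have been studied as regulators of activity-dependent gene expression.

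Libraries came from wild-type male Sprague-Dawley rats aged 8 to 9 weeks and fell into 3 groups of 5. Rnf20-labelled libraries (replicates 4, 8, 14, 18 and 20) came from rats given Accell siRNA against Rnf20 in dorsal CA1 and trained in contextual fear conditioning, a task that pairs a place with a shock. Scrambled trained libraries (replicates 5, 6, 10, 15 and 16) came from rats given a scrambled control siRNA and the same training, and naive libraries (replicates 1, 2, 9, 11 and 12) from rats given scrambled siRNA and no training. Training came 5 days after the injection, and the interval between training and dissection is not given in the sources used here. Accell siRNA is designed to enter cells without a transfection reagent. The RNA was from frozen tissue holding all brain cell types. No naive group with Rnf20 siRNA is among the samples, and the labels do not state that each library was its own animal, so p-values measure the spread between these samples, which may be technical.

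Total counts were 12537250 to 20644425 per library. Rnf20 mRNA, the labelled siRNA target, averaged 42.0 ± 2.32 CPM (counts scaled to library size) in the Rnf20-labelled group, 43.2 ± 5.39 CPM in the scrambled trained group and 41.8 ± 2.28 CPM in the naive group (SD, n = 5 each). Between the trained groups its log2 difference was -0.04 (SE 0.08; 95% interval -0.22 to 0.13), so no decrease beyond the spread was detected, and the name Rnf20-labelled stands for the label only. Markers of CA1 pyramidal neurons were present in every library, with a summed level over the 5 tested markers of 517 to 899 CPM in Rnf20-labelled libraries, 294 to 1588 CPM in scrambled trained ones and 489 to 1045 CPM in naive ones. The lowest of these sums was in scrambled trained replicate 10. Scrambled trained replicates 10 and 15 and Rnf20-labelled replicates 14 and 18 stood apart on the first principal component in an earlier analysis of these data, and values without these 4 libraries are given where results rest on them.

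None of the 6 genes passed the test in any comparison. At an adjusted p under 0.05 (edgeR's quasi-likelihood F test, Benjamini-Hochberg adjustment over all genes tested), 0 of 6 were called between Rnf20-labelled and scrambled trained libraries, between Rnf20-labelled and naive libraries, and between scrambled trained and naive libraries. The share called among all 14880 genes was 0.00% in each of the 3 comparisons. Under DESeq2 0 of the 6 were called as well, while it called 1, 1 and 58 genes of all those tested in the same 3 comparisons. The closest to a difference was Kdm6b, the inducible demethylase, which averaged higher in Rnf20-labelled libraries than in both other groups. It was the 1 gene of the 6 with an unadjusted edgeR p under 0.05 in either comparison of the Rnf20-labelled group, where 5.61% of all genes had such a p against scrambled trained libraries (2.63% in the higher direction) and 2.30% against naive libraries (1.21% in the higher direction). Between scrambled trained and naive libraries 0 of 6 had one, against 9.97% of all genes. The groups overlapped for all 6 genes in every comparison (0 of 6 without overlap), while 0.659%, 0.497% and 1.75% of all genes had groups that did not overlap between Rnf20-labelled and scrambled trained, Rnf20-labelled and naive, and scrambled trained and naive libraries. An F test among the 3 groups called 0 of 6 after adjustment (0.00% of all genes), and Kdm6b alone had an unadjusted p under 0.05, against 6.44% of all genes. What varied most was the balance of Ezh2 to Ezh1, and it varied between libraries of the same group.

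Levels below are CPM scaled by trimmed mean of M values (TMM), and the values of a group follow its replicate numbers in rising order. Levels are compared between libraries and not between genes, since no transcript lengths were used.

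Ezh1, the catalytic subunit associated with non-dividing cells, was at 92.6, 82.9, 106, 75.6 and 86.2 CPM in Rnf20-labelled libraries. It was at 90.4, 73.5, 67.4, 79.3 and 78.7 CPM in scrambled trained libraries, and at 94.4, 87.7, 93.2, 80.1 and 86.4 CPM in naive libraries. The highest library of all was Rnf20-labelled replicate 14 and the lowest scrambled trained replicate 10, and the groups overlapped. Group means were 88.6 ± 11.4 CPM in Rnf20-labelled, 77.9 ± 8.49 CPM in scrambled trained and 88.3 ± 5.72 CPM in naive libraries (SD, n = 5 each). The log2 fold change of Ezh1 was 0.19 (SE 0.09; 95% interval -0.01 to 0.39; edgeR adjusted p = 0.832) between Rnf20-labelled and scrambled trained libraries, 0.00 (SE 0.09) between Rnf20-labelled and naive libraries, and -0.18 (SE 0.09; interval -0.38 to 0.02; adjusted p = 0.538) between scrambled trained and naive libraries. Scrambled trained replicate 5 was the library of its group closest to the naive level, and without it the last value was -0.24, while without the 4 libraries that stood apart it was -0.12. Over all alternatives the edgeR, limma or DESeq2 adjusted p of that difference was 0.273 to 0.887.

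Ezh2, the catalytic subunit associated with dividing cells, was at 11.0, 11.1, 8.58, 17.6 and 11.7 CPM in Rnf20-labelled libraries. It was at 8.70, 11.2, 21.1, 16.8 and 13.4 CPM in scrambled trained libraries and at 8.60, 10.0, 11.3, 13.7 and 10.6 CPM in naive libraries. The 3 highest libraries were scrambled trained replicates 10 and 15 and Rnf20-labelled replicate 18, and the remaining trained libraries lay within or near the naive range. Means were 12.0 ± 3.37 CPM in Rnf20-labelled, 14.2 ± 4.84 CPM in scrambled trained and 10.8 ± 1.89 CPM in naive libraries (SD, n = 5 each). On the log2 scale Ezh2 differed by -0.24 (SE 0.23; 95% interval -0.72 to 0.24) between Rnf20-labelled and scrambled trained libraries, 0.15 (SE 0.23) between Rnf20-labelled and naive libraries, and 0.39 (SE 0.23; 95% interval -0.09 to 0.87; edgeR adjusted p = 0.590) between scrambled trained and naive libraries. Without the 4 libraries that stood apart, the difference between scrambled trained and naive libraries was 0.04 and that between Rnf20-labelled and scrambled trained libraries was 0.01. Without scrambled trained replicate 5 alone, the first of these was 0.52, and without replicate 10 alone 0.22, and its adjusted p over all alternatives (edgeR, limma or DESeq2) was 0.288 to 0.984. Ezh2 had the largest replicate spread of the 6, with a biological coefficient of variation of 0.251, above that of 76.2% of genes tested. Its counts of 103 to 367 per library carry a counting error of 5.22% to 9.85%.

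Ezh2 reads as a share of the summed Ezh1 and Ezh2 reads describe the balance of the catalytic subunits within a library, without correction for transcript length. The share was 10.6%, 11.8%, 7.50%, 18.9% and 11.9% in Rnf20-labelled libraries, 8.78%, 13.2%, 23.8%, 17.5% and 14.6% in scrambled trained libraries and 8.35%, 10.2%, 10.8%, 14.6% and 10.9% in naive libraries. It was highest in scrambled trained replicate 10, with a 95% Wilson interval of 21.7% to 26.0% that covers counting error only, and lowest in Rnf20-labelled replicate 14, with an interval of 6.22% to 9.01%. Both extremes lay in trained groups and outside the naive range. Means were 12.2 ± 4.18% in Rnf20-labelled, 15.6 ± 5.57% in scrambled trained and 11.0 ± 2.28% in naive libraries (SD, n = 5 each).

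Eed, the WD40 subunit that reads trimethylated H3K27 and stimulates the enzyme, was at 17.2, 16.3, 17.8, 22.7 and 18.6 CPM in Rnf20-labelled libraries. It was at 17.6, 18.1, 23.4, 20.4 and 18.6 CPM in scrambled trained libraries and at 16.1, 17.5, 19.0, 17.8 and 18.4 CPM in naive libraries. The 3 highest libraries were the same 3 as for Ezh2. Means were 18.5 ± 2.48 CPM, 19.6 ± 2.37 CPM and 17.7 ± 1.09 CPM in Rnf20-labelled, scrambled trained and naive libraries (SD, n = 5 each), and the log2 fold change between scrambled trained and naive libraries was 0.15 (SE 0.10; edgeR adjusted p = 0.660). Eed differed by -0.08 (SE 0.10) between Rnf20-labelled and scrambled trained libraries and by 0.06 (SE 0.10) between Rnf20-labelled and naive libraries on the log2 scale.

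Suz12, the zinc finger subunit that holds the core complex together, was at 25.0, 25.7, 27.7, 26.6 and 24.0 CPM in Rnf20-labelled libraries. It was at 25.9, 26.5, 22.8, 29.1 and 20.5 CPM in scrambled trained libraries and at 24.3, 23.1, 24.7, 21.7 and 24.2 CPM in naive libraries. Its lowest and highest values both lay in the scrambled trained group, in replicates 16 and 15. Of the Rnf20-labelled libraries 4 of 5 exceeded the highest naive library, with means of 25.8 ± 1.45 CPM and 23.6 ± 1.20 CPM (SD, n = 5 each) and a log2 fold change of 0.13 (SE 0.09; edgeR adjusted p = 1.00). The scrambled trained mean was 25.0 ± 3.33 CPM, and the other differences were 0.05 (SE 0.09) for Rnf20-labelled against scrambled trained libraries and 0.08 (SE 0.09) for scrambled trained against naive libraries.

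Kdm6a, the X-linked demethylase also called UTX, was at 26.8, 27.9, 25.3, 23.5 and 23.4 CPM in Rnf20-labelled libraries. It was at 25.9, 24.8, 26.0, 26.9 and 22.2 CPM in scrambled trained libraries and at 23.4, 30.8, 23.3, 28.7 and 27.2 CPM in naive libraries. The groups overlapped throughout, with means of 25.4 ± 1.99 CPM, 25.1 ± 1.82 CPM and 26.7 ± 3.29 CPM in Rnf20-labelled, scrambled trained and naive libraries (SD, n = 5 each). Its log2 fold changes were 0.01 (SE 0.09) for Rnf20-labelled against scrambled trained, -0.07 (SE 0.09) for Rnf20-labelled against naive and -0.09 (SE 0.09) for scrambled trained against naive libraries. The Y-linked paralog Uty, for which the RefSeq gene table lists Kdm6a as a synonym, was not analysed here. Shared reads were not examined, and any reads shared between the paralogs would make the level of Kdm6a uncertain.

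Kdm6b, the demethylase also called JMJD3, which inflammatory signals induce in mouse macrophages, was at 33.3, 37.5, 31.0, 34.3 and 39.2 CPM in Rnf20-labelled libraries. It was at 33.3, 29.9, 28.3, 29.8 and 27.5 CPM in scrambled trained libraries and at 32.0, 28.9, 31.9, 28.9 and 28.4 CPM in naive libraries. Of the 5 Rnf20-labelled libraries, 4 lay above the highest library of each other group, and replicate 14 lay within both ranges. The lowest of these 4, replicate 4, exceeded the highest scrambled trained library only in the second decimal, at 33.34 against 33.29 CPM. Means were 35.1 ± 3.30 CPM in Rnf20-labelled, 29.8 ± 2.21 CPM in scrambled trained and 30.0 ± 1.77 CPM in naive libraries (SD, n = 5 each).

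Between Rnf20-labelled and scrambled trained libraries the log2 fold change of Kdm6b was 0.24 (SE 0.08; 95% interval 0.07 to 0.40; edgeR adjusted p = 0.832), or 17.8% higher with an unadjusted interval of 5.06% to 32.2%. Ordered by p, Kdm6b ranked 102 of 14880 genes, and 0.679% of genes had a smaller p. Between Rnf20-labelled and naive libraries it was 0.22 (SE 0.08; interval 0.06 to 0.39; edgeR adjusted p = 1.00), rank 60, and 0.397% of genes had a smaller p. These comparisons share the Rnf20-labelled libraries. Between scrambled trained and naive libraries the difference was -0.01 (SE 0.08; interval -0.18 to 0.15; edgeR adjusted p = 0.972), while 16 of 20 immediate early genes had a fold change above 0 there, with a median of 0.40 against -0.01 over all genes and 0 called. In the F test among the 3 groups Kdm6b had F = 5.95 (edgeR adjusted p = 0.743). Kdm6b had the smallest replicate spread of the 6, with a coefficient of variation of 0.0972, and 9.50% of genes tested had a lower one. Under every alternative fit its fold change stayed between 0.20 and 0.28 against scrambled trained libraries and between 0.18 and 0.29 against naive libraries. Adjusted p-values over these fits (edgeR, limma or DESeq2) were 0.265 to 1.00 and 0.899 to 1.00.

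**Figure D1:**
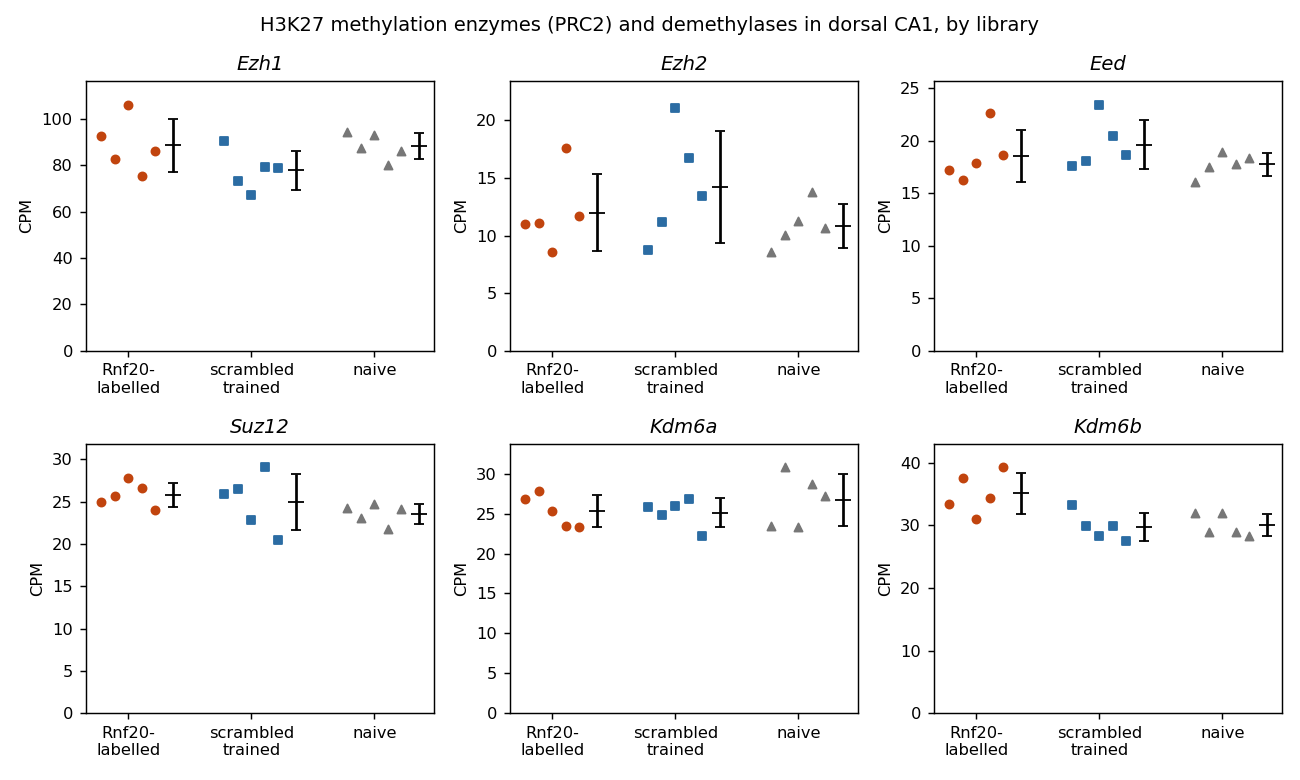
Level of each gene in CPM (vertical axes, from 0) in the 5 libraries of each group, with 1 point a library in order of replicate number and a bar for the mean ± SD. The 3 highest points of Ezh2 and Eed belong to the same libraries, and 4 of 5 Rnf20-labelled points of Kdm6b lie above both other groups.

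**Figure D2:**
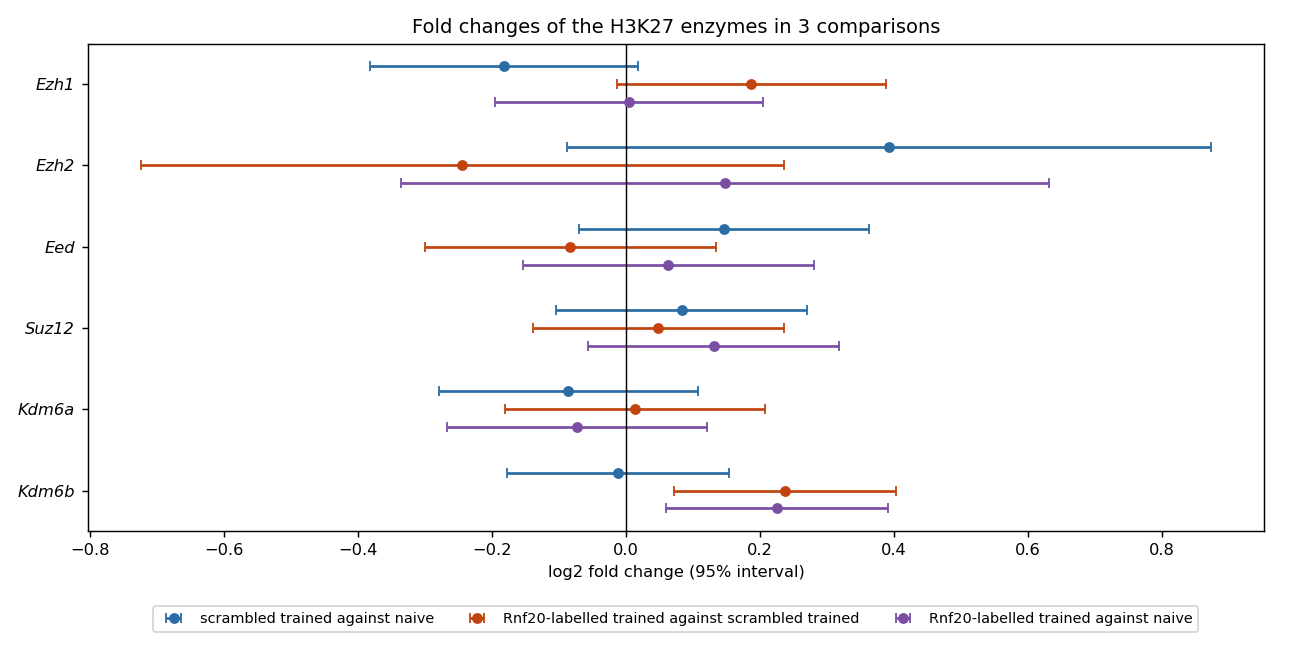
Log2 fold change (horizontal axis) of the 6 genes in the 3 comparisons, with unadjusted 95% intervals from the edgeR fit of all 15 libraries. Only the intervals of Kdm6b for Rnf20-labelled libraries against scrambled trained libraries and against naive libraries lie clear of 0, and neither passed the adjusted threshold.

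The 6 genes fell apart in how they varied across libraries: Ezh1, Ezh2 and Eed moved along a common axis, and no relation of Suz12, Kdm6a or Kdm6b passed the threshold. Pearson's r and Spearman's rho of log2 CPM were computed over the 15 libraries for 39 relations, 15 between the genes and 24 of genes with marker scores, each score being the mean log2 CPM of a marker list. Permutation p-values from 100000 permutations were adjusted over the 39, and 14 of the 39 values of r passed. Ezh2 was lower where Ezh1 was higher, with r = -0.82 (rho = -0.81; permutation p = 8e-05, adjusted 0.00078). The value was -0.81 after group means were subtracted, -0.70 without the 2 libraries farthest from the median of Ezh1, and -0.60 without the 4 libraries that stood apart (permutation, adjusted 0.410, n = 11). Eed was higher where Ezh2 was higher, with r = 0.86 (rho = 0.75; permutation p = 0.00012, adjusted 0.000845), 0.84 after group means were subtracted and 0.67 without the 2 farthest libraries. Without the 4 libraries it was 0.52 (permutation, adjusted 0.446), so the relation rests in good part on them. Ezh1 and Eed had r = -0.64 (permutation p = 0.0110, adjusted 0.0322), a value whose rho of -0.56 did not pass (adjusted 0.104), and -0.26 without the 4 libraries (permutation, adjusted 0.668). Suz12, a subunit of the same complex, had r = -0.12 with Ezh2, 0.06 with Eed and 0.22 with Ezh1 (permutation, adjusted 0.756 to 0.959). Each group holds 5 libraries, too few for a correlation within a group.

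**Figure D3:**
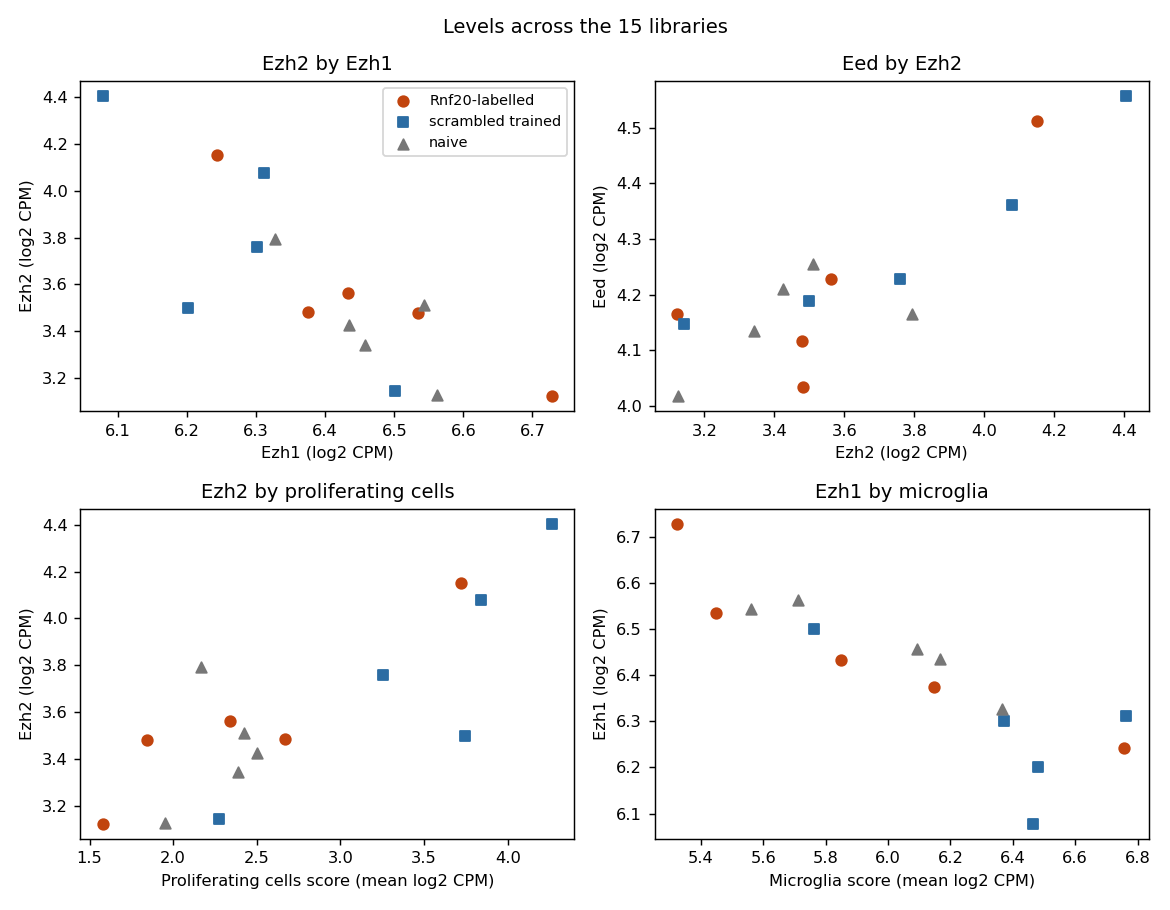
Levels of pairs of genes, or of a gene and a marker score, in log2 CPM on both axes, with 1 point for each of the 15 libraries and symbols for the 3 groups. Ezh2 is lower where Ezh1 is higher (r = -0.82), Eed is higher where Ezh2 is higher (r = 0.86), Ezh2 is higher where proliferating cell markers are higher (r = 0.81), and Ezh1 is lower where microglial markers are higher (r = -0.88).

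Markers of other cells moved with the same axis. The proliferating cell list, of which 16 of 17 markers were tested and none of these was at 0 in any library, summed to 56.2 to 249 CPM in Rnf20-labelled, 84.2 to 339 CPM in scrambled trained and 69.3 to 103 CPM in naive libraries. The reactive glia list (17 of 18 tested) summed to 2680 to 9095 CPM, 4806 to 10537 CPM and 3510 to 5381 CPM in Rnf20-labelled, scrambled trained and naive libraries. The microglia list (10 of 12 tested) summed to 519 to 1489 CPM, 690 to 1568 CPM and 608 to 1146 CPM in the same 3 groups. Siglech, a microglial marker too low to be tested, was at 0 in 7 libraries. The pan-neuronal list (12 of 12 tested) summed to 5798 to 10187 CPM in Rnf20-labelled, 5203 to 8921 CPM in scrambled trained and 7478 to 9017 CPM in naive libraries. In bulk tissue, more cells of a type and more RNA per cell cannot be told apart.

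Ezh1 was lower where proliferating cell markers were higher, with r = -0.90 (rho = -0.84; permutation p = 1e-05, the smallest that 100000 permutations can give, adjusted 0.00039). Without the 4 libraries that stood apart it was -0.83 (permutation, adjusted 0.0250). It was also lower where microglial markers were higher, with r = -0.88 (rho = -0.92; permutation p = 2e-05, adjusted 0.00039), and -0.92 without the 4 libraries (adjusted 0.00351). These were the 2 relations that still passed without those libraries. Ezh1 had r = -0.82 with the reactive glia score (rho = -0.88; permutation p = 0.00013, adjusted 0.000845) and r = 0.81 with the pan-neuronal score (rho = 0.81; permutation p = 0.00016, adjusted 0.000891). Without the 4 libraries these values were -0.71 (permutation, adjusted 0.176) and 0.52 (permutation, adjusted 0.446), and neither passed.

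Ezh2 was lower where pan-neuronal markers were higher, with r = -0.90 (rho = -0.77; permutation p = 4e-05, adjusted 0.00052), -0.78 without the 2 farthest libraries and -0.49 without the 4 libraries (permutation, adjusted 0.446). Its r was 0.81 with the proliferating cell score (rho = 0.70; permutation p = 0.0003, adjusted 0.00146), 0.80 with the reactive glia score (rho = 0.78; permutation p = 0.00037, adjusted 0.0016) and 0.76 with the microglia score (rho = 0.74; permutation p = 0.001, adjusted 0.00369). Without the 4 libraries these 3 values were 0.34, 0.42 and 0.49, and none passed. Eed had r = 0.76 with the proliferating cell score (rho = 0.66; permutation p = 0.00104, adjusted 0.00369), and 0.36 without the 4 libraries (permutation, adjusted 0.668). With the reactive glia score it was 0.63 (rho = 0.49; permutation p = 0.0115, adjusted 0.0322; rho adjusted 0.180), and 0.08 without the 4 libraries (adjusted 0.910). Its r of -0.78 with the pan-neuronal score had a rho of -0.40 (permutation, adjusted 0.338) and was 0.04 without the 4 libraries.

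With the reactive glia score as a covariate, the log2 difference of Ezh2 between scrambled trained and naive libraries was -0.02, against 0.39 without it, and with the pan-neuronal score it was 0.02. For Ezh1 the same values were -0.05 and -0.07, against -0.18. The part of these cell types in the levels of Ezh1, Ezh2 and Eed was not tested further. Kdm6b had r of -0.31 to 0.19 with the 4 scores (permutation, adjusted 0.607 to 0.915). Its log2 difference between Rnf20-labelled and scrambled trained libraries was 0.25 with the reactive glia covariate and 0.22 with the pan-neuronal covariate. It was 0.27 without the 4 libraries, and 0.24 in the fit of all 15 libraries without a covariate. Median reactive glia scores were 5.29, 6.22 and 4.91 in Rnf20-labelled, scrambled trained and naive libraries, so this covariate was not independent of group. The part of cell types in the level of Kdm6b was not tested.

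**Figure D4:**
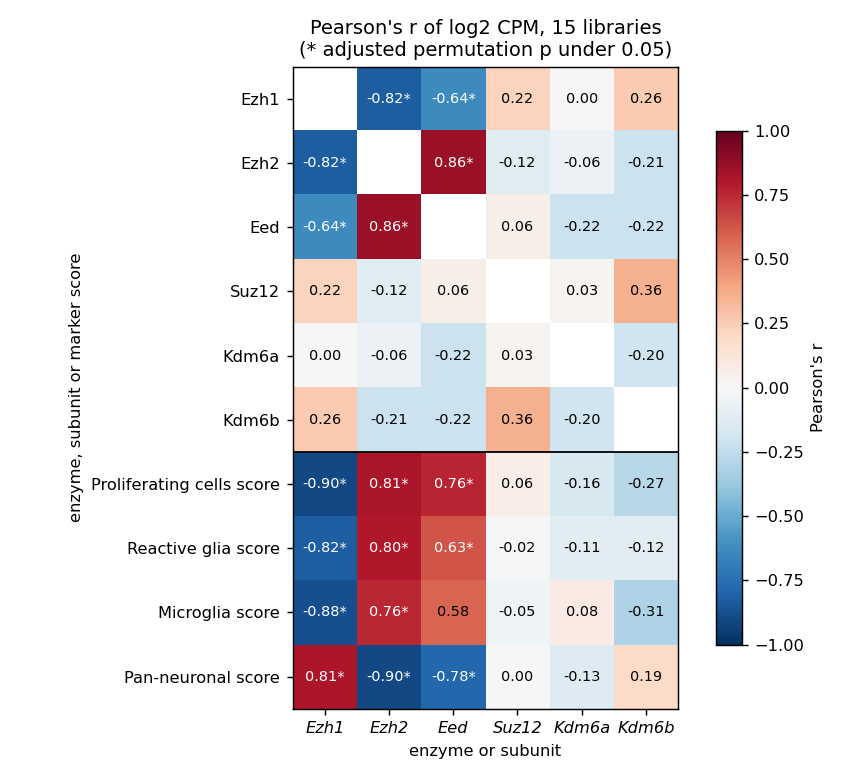
Pearson's r of log2 CPM over the 15 libraries between the 6 genes (upper rows) and between each gene and 4 marker scores (lower rows), with an asterisk where the permutation p adjusted over 39 relations is under 0.05. Asterisks fall on Ezh1, Ezh2 and Eed and on none of Suz12, Kdm6a and Kdm6b.

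Promoter sequences of the PRC2 genes are shown because Ezh2 and Eed moved together while Suz12 did not. Promoters of 4 of the 6 genes were in the RefSeq table used (Ezh2, Eed, Suz12 and Kdm6b, assembly GRCr8), and those of Ezh1 and Kdm6a are not shown. The counts were made on the assembly Rnor_6.0, and no coordinates were carried between assemblies. Each sequence runs 5′ to 3′ on the gene's strand over 280 bases, 250 before the transcription start and 30 from it. Capitals mark matches on either strand to an E2F word (TTTGGCGC, TTTCGCGC, TTTGCCGC or TTTCCCGC) or to a CCAAT box (CCAAT, read ATTGG on the other strand). The cAMP response element TGACGTCA was also searched. Ezh2 is at chr4:77687154-77687433 on the minus strand, Eed at chr1:153307471-153307750 on the minus strand and Suz12 at chr10:65464719-65464998 on the plus strand.
Ezh2: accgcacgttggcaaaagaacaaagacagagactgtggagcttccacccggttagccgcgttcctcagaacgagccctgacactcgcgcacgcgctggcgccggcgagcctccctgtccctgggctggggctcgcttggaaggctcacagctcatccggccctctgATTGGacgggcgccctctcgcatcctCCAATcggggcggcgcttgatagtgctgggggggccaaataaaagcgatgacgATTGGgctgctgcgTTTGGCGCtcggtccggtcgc
Eed: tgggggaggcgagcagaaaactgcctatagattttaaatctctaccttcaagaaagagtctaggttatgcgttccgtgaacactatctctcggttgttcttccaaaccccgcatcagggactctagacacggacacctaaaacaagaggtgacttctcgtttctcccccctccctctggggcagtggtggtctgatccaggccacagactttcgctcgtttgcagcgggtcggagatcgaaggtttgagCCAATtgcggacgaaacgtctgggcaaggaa
Suz12: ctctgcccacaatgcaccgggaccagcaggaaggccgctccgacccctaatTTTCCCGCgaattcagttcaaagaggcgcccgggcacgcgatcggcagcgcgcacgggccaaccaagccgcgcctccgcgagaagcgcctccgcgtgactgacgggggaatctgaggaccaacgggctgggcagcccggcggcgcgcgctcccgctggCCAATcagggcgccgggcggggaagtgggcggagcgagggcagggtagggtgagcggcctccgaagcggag

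With the first transcribed base as 1 and the base before it as -1, the Ezh2 window held an E2F word beginning at 10 and CCAAT boxes at -84, -58 and -5. The Eed window held a CCAAT box at -1 and no E2F word, and the Suz12 window held an E2F word at -199 and a CCAAT box at -41. An E2F word occurred in 2.00% of 33469 promoter windows of this length, a CCAAT box in 36.2% and the cAMP response element in 1.78%. None of the 4 windows held the cAMP response element, and that of Kdm6b (chr10:54640985-54641264, minus strand) held none of the motifs. A match describes letters in the window and not binding.

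Genes that act with these enzymes had no member past the adjusted edgeR threshold in any comparison, and 0.00% of all 14880 genes passed it in each. Another 11 tested genes were listed as PRC2 subunits or partners, among them Rbbp4, Rbbp7 and Eloa. Of these, 5 had a log2 fold change above 0 between Rnf20-labelled and scrambled trained libraries (median -0.03). The count was 6 between Rnf20-labelled and naive libraries (median 0.01) and 7 between scrambled trained and naive libraries (median 0.03). Medians over all genes were 0.00, 0.00 and -0.01 in the same comparisons. Jarid2, which recruits PRC2 to its targets, was at 26.1 ± 3.45 CPM in scrambled trained and 30.2 ± 1.33 CPM in naive libraries (SD, n = 5 each; log2 fold change -0.21, SE 0.09; edgeR adjusted p = 0.447). Rbbp4, a histone-binding subunit, was at 60.5 ± 4.50 CPM in Rnf20-labelled and 69.7 ± 8.12 CPM in scrambled trained libraries (-0.20, SE 0.09; edgeR adjusted p = 0.832).

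PRC1 is a family of complexes that ubiquitinate histone H2A, and only some of them bind trimethylated H3K27. Among 23 tested subunits of PRC1, 16 lay above 0 between Rnf20-labelled and scrambled trained libraries. The count was 11 between Rnf20-labelled and naive libraries and 10 between scrambled trained and naive libraries. Cbx7, a chromodomain subunit that reads the mark, was at 39.7 ± 6.23 CPM in scrambled trained and 50.6 ± 8.63 CPM in naive libraries (-0.35, SE 0.14; edgeR adjusted p = 0.423). Phc3 was at 31.1 ± 1.87 CPM in Rnf20-labelled and 25.4 ± 1.60 CPM in naive libraries (0.29, SE 0.14; edgeR adjusted p = 1.00). Of the 8 genes of the H2A deubiquitinase complex, 7, 6 and 2 lay above 0 in the same 3 comparisons, where 50.7%, 50.6% and 47.2% of all genes did. None of the 8 had an unadjusted edgeR p under 0.05, against 5.61%, 2.30% and 9.97% of all genes.

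KDM6A works in the MLL3 and MLL4 complexes, which methylate H3K4 at enhancers, and of their 9 other tested genes 5, 5 and 3 lay above 0 in those comparisons. Kmt2d, the MLL4 methyltransferase, was at 222 ± 25.7 CPM in Rnf20-labelled, 183 ± 11.4 CPM in scrambled trained and 185 ± 7.21 CPM in naive libraries (SD, n = 5 each). Its log2 fold change was 0.28 (SE 0.08; edgeR adjusted p = 0.832) against scrambled trained and 0.27 (SE 0.08; adjusted p = 1.00) against naive libraries, and its Rnf20-labelled range of 191 to 254 CPM overlapped those of scrambled trained libraries (167 to 197 CPM) and naive libraries (176 to 194 CPM). Kmt2c, the MLL3 methyltransferase, was at 58.4 ± 4.81 CPM in Rnf20-labelled and 47.7 ± 13.1 CPM in scrambled trained libraries (0.29, SE 0.16; edgeR adjusted p = 0.832).

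Developmental regulators that PRC2 keeps silent in mouse were mostly near the detection limit. Of 48 listed genes 34 were analysed, 27 of these averaged under 1 CPM and 9 had enough counts to be tested. Of the 9, 6 lay above 0 between Rnf20-labelled and scrambled trained libraries (median log2 fold change 0.11), 4 between Rnf20-labelled and naive libraries (-0.16) and 2 between scrambled trained and naive libraries (-0.24), with 0 called. These 9 passed the count filter because they were expressed, so their directions do not describe the members too low to be tested. Choroid plexus markers, from the secretory tissue of the neighbouring ventricle, lay mostly below 0 in every comparison. Between Rnf20-labelled and scrambled trained libraries 8 of 9 tested markers did (median -0.29), and the median of the developmental list was 0.11. Against naive libraries the developmental list had medians below 0. There 9 of 9 choroid plexus markers lay below 0 for Rnf20-labelled (-1.17) and for scrambled trained libraries (-0.93). They summed to 88.2 to 1883 CPM in Rnf20-labelled, 13.1 to 4342 CPM in scrambled trained and 1447 to 4518 CPM in naive libraries, and Prlr was at 0 in 1 library. Sums of the developmental list rest in large part on Msx1 and not on the genes under 1 CPM. Msx1 averaged 15.0, 16.1 and 22.6 CPM in Rnf20-labelled, scrambled trained and naive libraries, where the median sums of the list were 42.2, 35.9 and 52.9 CPM. The developmental list had its highest sum, 63.8 CPM, in scrambled trained replicate 10, where choroid plexus markers summed to 4342 CPM. Its lowest sum, 29.1 CPM, was in scrambled trained replicate 5, where choroid plexus markers summed to 13.1 CPM. The highest choroid plexus sum, 4518 CPM, was in naive replicate 12, where the developmental list summed to 55.7 CPM. The part of choroid plexus tissue in the list and in Bmp7 was not tested. Bmp7, a secreted growth factor, was at 3.58 ± 1.31 CPM in Rnf20-labelled and 6.72 ± 2.34 CPM in naive libraries (SD, n = 5 each; -0.90, SE 0.36; edgeR adjusted p = 1.00). Histone methylation itself was not analysed here.

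The genes whose levels across the 15 libraries were most like each of the 6 were taken from 11588 candidates with a mean of at least 5 CPM, as a description with Pearson's r of log2 CPM. For Ezh1 these were Pdk2 (r = 0.91), Ttc33 (0.90) and Map1lc3b (0.90), and for Ezh2 Trim5 (0.96), Smim3 (0.96) and Jpt2 (0.94). For Eed they were Eif4e2 (0.90), Gmnn (0.90), which encodes the replication licensing inhibitor geminin, and Rbbp8 (0.90), which encodes the DNA end resection factor CtIP. For Suz12 they were Arid5b (0.88), Thoc2 (0.87) and Pds5a (0.87). Kdm6a had the lowest top values, with Cyp2j10 (0.78), Mettl14 (0.72) and Ttc26 (0.71), and Kdm6b had Pkd1 (0.83), Cic (0.82) and Hlcs (0.81). After group means were subtracted, the r of Kdm6b was 0.68 with Pkd1, 0.70 with Cic and 0.89 with Hlcs. That of Trim5 with Ezh2 was 0.96.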

How the data were processed

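RNA was sequenced from dorsal CA1 in 15 libraries, with stranded poly(A) libraries and 14 PCR cycles, per the labels' protocols. Per the submitters' processing notes, the authors used Trim Galore, FastQC, featureCounts 2.0.1, DESeq2 and the assembly Rnor_6.0; no aligner, annotation or strand setting is named there. Per the file headers, the raw table is a deposited read count for every gene in each library. The authors' normalised signal table equalled those counts over a single factor per library, with the factors estimated from the same tables (0 values differing at a relative tolerance of 1e-06). It was not used further.

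The 14880 genes passing filterByExpr held 99.9% of counts. They were fitted in edgeR 4.0.16 (R 4.3.3) by the robust quasi-likelihood test on all 15 libraries with TMM scaling, 12 residual degrees of freedom and Benjamini-Hochberg adjustment at 0.05. Log2 CPM used a prior count of 2. Alternatives used DESeq2 1.42.0, limma 3.58.1 and sva 3.50.0, other scalings, filters and covariates, and libraries left out. Fits were tested on simulated data. Correlations were computed in Python 3.11.15 and were added after the data were seen.

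All 6 genes were named in every comparison, from related lists up to 4 genes of smallest p were eligible, and 3 genes of highest correlation were named for each of the 6. The 6 genes, the lists and the libraries left out together were chosen with earlier results of these data known.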

Additional observations from a re-analysis of the deposited data

How the results depend on the processing

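None of the 6 genes was called in any comparison under any alternative run. The count over all genes was 0 in every comparison except under DESeq2 (1 for Rnf20-labelled against scrambled trained, 1 for Rnf20-labelled against naive, 58 for scrambled trained against naive, 16 in the F test), with 1 surrogate variable (2 for scrambled trained against naive) and without naive replicate 9 (1 for Rnf20-labelled against naive and 1 in the F test). Of 504 log2 fold changes of the 6 genes under alternatives, 477 kept their sign and 27 reversed, 13 of them with 1 library left out; the cause was not tested.

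Between Rnf20-labelled and scrambled trained libraries, Ezh2 was 0.10 with the reactive glia covariate, 0.00176 with the pan-neuronal covariate, 0.0493 with 1 surrogate variable and 0.00907 without the 4 libraries that stood apart, and Eed was 0.0142 with the reactive glia covariate and 0.00276 with 1 surrogate variable. Between Rnf20-labelled and naive libraries, Ezh1 was -0.0017 with no filter, -0.0163 without the 4 libraries, -0.000653 with voom and -0.00213 with voom and quality weights, and Eed was -0.0295 without the 4 libraries. Between scrambled trained and naive libraries, Ezh2 was -0.0178 with the reactive glia covariate, and Kdm6b was 0.0092 with the pan-neuronal covariate and 0.0179 without the 4 libraries.

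Leaving out each library in turn gave ranges that crossed 0 between Rnf20-labelled and scrambled trained libraries for Suz12 (-0.0152 to 0.114) and Kdm6a (-0.0283 to 0.0479), between Rnf20-labelled and naive libraries for Ezh1 (-0.0672 to 0.0615), Ezh2 (-0.0313 to 0.247) and Eed (-0.0173 to 0.106), and between scrambled trained and naive libraries for Kdm6b (-0.0558 to 0.0144). The correlation of Eed with the pan-neuronal score reversed to 0.0361 without the 4 libraries. With 1 library left out in turn, the relation of Ezh1 with Eed ranged from -0.70 to -0.46 and that of Eed with the reactive glia score from 0.55 to 0.73, and both lost the threshold without any 1 of Rnf20-labelled replicates 4 and 18 or scrambled trained replicates 10 and 15, and the first also without naive replicate 1. Both also lost it without the 3 libraries of lowest choroid plexus level, at -0.64 and 0.64 over fewer libraries, and without the 4 libraries, at -0.26 and 0.08.

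No paired analysis was possible because the groups share no replicate numbers. No within-batch values were possible because the labels name no batch. Ezh2 had the lowest counts of the 6 and the largest counting error, 5.22% to 9.85%, below its biological coefficient of variation of 0.251. The number of libraries limits all 6 genes.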
